A study of Macaca mulatta with 81 samples.

Results

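Circulating T cells of rhesus macaques given an allogeneic hematopoietic cell transplant under FR104 were compared with T cells of macaques given an autologous transplant. The comparison takes the 3 arrays whose title ends in FR104.F (animals R.22, R.23 and R.24) and the 3 whose title ends in Auto.D36 (animals R.200, R.201 and R.202), 6 of the 81 arrays in the series. The FR104.F animals had an allogeneic donor and FR104 as prophylaxis, and their arrays are labelled Final with no day. The Auto.D36 animals were autologous recipients with no prophylaxis, sampled on day 36. The 6 animals are different individuals and all 6 arrays belong to batch 4. Donor type and prophylaxis differ between the groups and the day of the FR104.F samples is not given, so these factors cannot be told apart.

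In the whole study CD3 T cells were sorted from blood after transplant and from healthy controls, and their RNA was read on Affymetrix arrays. Used here beside the 6 arrays are the day 14 arrays of the same animals (FR104.D14, n = 3; Auto.D14, n = 3) and 34 arrays labelled as healthy controls, with no day given. Of the 6 animals, R.22, R.200, R.201 and R.202 also gave a healthy control array. Sex and age of the animals were not used here.

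In an allogeneic transplant, donor T cells can recognise the tissues of the recipient and cause graft-versus-host disease. A T cell needs a signal from its antigen receptor and a costimulatory signal, classically from CD28 binding CD80 or CD86. FR104, a fragment of an antibody to CD28, blocks that receptor and leaves CTLA4, the inhibitory receptor for the same ligands, free to bind them. An autologous recipient receives its own cells and goes through conditioning and recovery without a foreign graft. Naive T cells carry homing receptors and transcription factors such as TCF7, whereas differentiated effector T cells carry granzymes and trafficking receptors such as CX3CR1 and S1PR5.

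T cells of the FR104.F group had less RNA of several effector and trafficking genes and more of several naive and quiescence genes than those of the Auto.D36 group. CX3CR1, the receptor for the membrane chemokine fractalkine, was 11.2-fold lower, and GZMH, which encodes a granzyme of cytotoxic granules, was 12.3-fold lower. ZBED2, a zinc finger transcription factor reported in chronically stimulated T cells, was 11.4-fold higher, and CA6, a secreted carbonic anhydrase, 5.16-fold higher. BTLA, CD200, CISH, MYC and MYB were higher in FR104.F as well. CD28 itself was not called, nor was any gene of the cell cycle list (17 tested) or the type I interferon list (19 tested), beside 3.15% of all tested genes. Lists of this size can hold no call at that share.

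Of 11806 genes tested, 372 passed a Benjamini-Hochberg adjusted p of 0.05 in limma, which is 3.15% of them. Of these, 187 were higher in FR104.F (1.58% of genes tested) and 185 lower (1.57%), and the median difference over all genes was 0.00 on the log2 scale. A difference of at least 2-fold was seen for 92 of the higher and 53 of the lower genes. The arrays of the groups did not overlap for 1497 genes in the higher direction (12.7%) and for 1618 in the lower direction (13.7%). The number of calls rested on single arrays: it was 66 without R.200 and 208 without R.202 of Auto.D36, and 166, 130 and 231 without R.22, R.23 and R.24 of FR104.F. Within batch 4 alone 192 genes passed, of which 187 were among the 372.

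**Figure D1:**
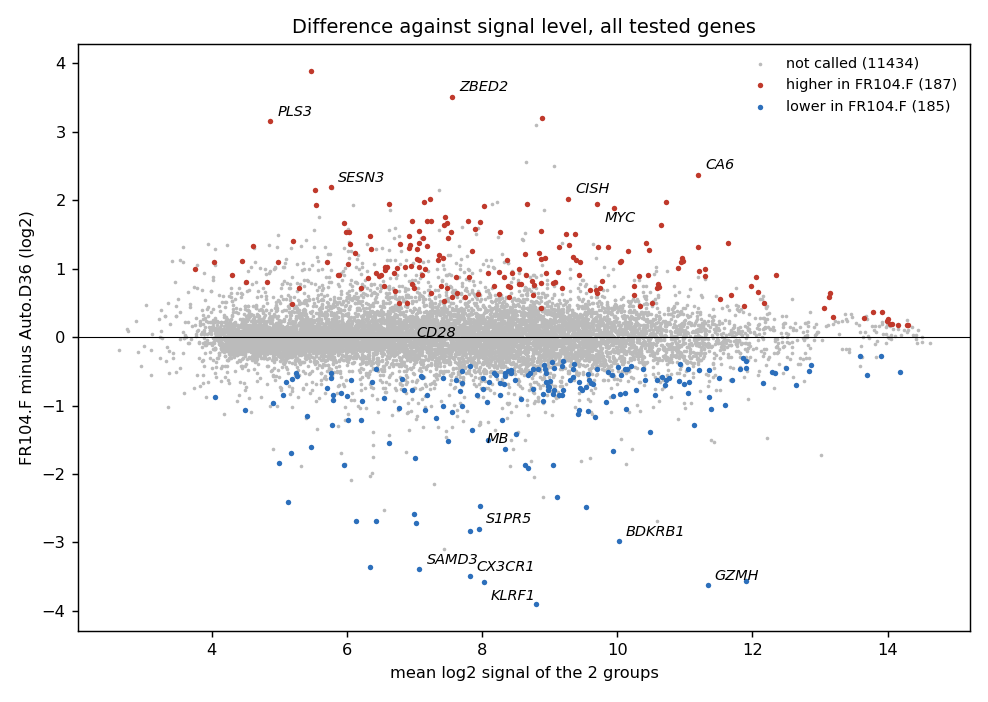
FR104.F minus Auto.D36 for each of the 11806 tested genes (log2, vertical) against the mean log2 signal of both groups (horizontal), with 187 genes called higher in red and 185 called lower in blue. The largest called differences lie between signals of about 5 and 12 in both directions, while MB and CD28 are among the genes that were not called.

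Values below are log2 probe set signals, so that a difference of 1 is a 2-fold change, and errors of differences are standard errors of the fit. Before the genes, the integrity of the RNA was compared through control probe sets at both ends of the actin transcript. The 3' minus 5' signal of actin was 0.43, 0.24 and 0.09 on the FR104.F arrays of R.22, R.23 and R.24. It was -0.34, -0.34 and -0.30 on the Auto.D36 arrays of R.200, R.201 and R.202. The FR104.F arrays thus had the larger loss of signal toward the 5' end on all 3 arrays, with means of 0.25 ± 0.17 (SD, n = 3) and -0.33 ± 0.02 (SD, n = 3). The difference of 0.58 had a 2-sided exact permutation p of 0.1, the smallest that 3 against 3 arrays allow. GAPDH gave 0.98 ± 0.17 and 0.37 ± 0.13 (SD, n = 3 each), again without overlap and with an exact p of 0.1.

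Both groups were low beside the healthy controls, whose actin values ran from 0.43 to 3.83 with a median of 1.21. With the actin signal as a covariate, 327 genes passed in FR104.F against Auto.D36, and 302 of them were among the 372. Of the 39 named genes called, 34 kept their call with that covariate, and IL12RB1, METTL14, RRM2B, SPEG and TANC1 did not. Array medians were 5.17 to 5.21 and means of added spike-in transcripts 6.65 to 6.78 over the 6 arrays. Correlations over all 52865 probe sets were 0.987 to 0.990 within the groups and 0.977 to 0.986 between them.

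**Figure D2:**
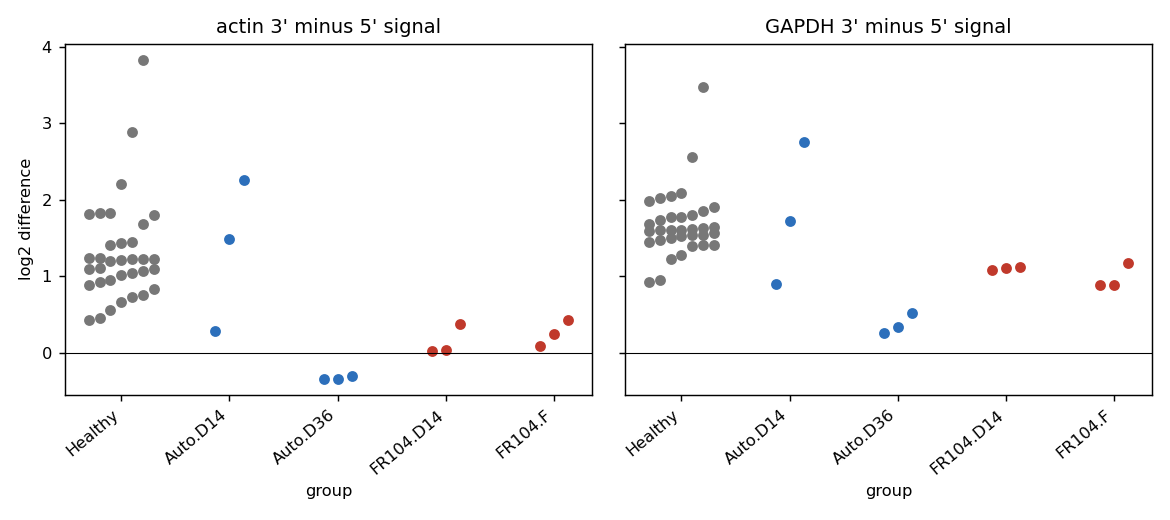
Signal at the 3' end minus the 5' end of actin (left) and GAPDH (right), in log2 units, with 1 point per array for 34 healthy controls and 3 arrays of each transplant group. The Auto.D36 arrays lie lowest in both panels and the FR104.F arrays lie above them without overlap.

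The sort was checked on T cell genes. Probe sets for CD3D, CD3E, CD3G and CD2 are not analysed here, since none carried these names. Of the 8 T cell identity genes tested, CD8A averaged 12.59 in FR104.F and 12.91 in Auto.D36, TRAT1 11.72 and 10.88, CD5 10.39 and 10.30, and UBASH3A 9.79 and 9.90. These are well above the filter value of 4.65 on all 6 arrays. CD7, a surface glycoprotein of T and NK cells, was the 1 member called (beside 3.15% of all tested genes). Its signal was 6.20, 6.76 and 6.69 in FR104.F and 4.90, 6.11 and 5.45 in Auto.D36, so R.200 lay near the filter value. CD7 was higher in FR104.F by 1.06 ± 0.30 (adjusted p = 0.0349). Its call was lost without R.200 (0.335), R.202 (0.0953), R.23 (0.178) or R.24 (0.108). CD4 (7.18 and 7.50), CD8A and CD8B (10.78 and 10.98) gave no call, with differences of -0.32 ± 0.25, -0.32 ± 0.22 and -0.19 ± 0.37. CD6 (7.98 and 8.79) was lower in FR104.F without overlap and was not called (-0.81 ± 0.33, adjusted p = 0.181). In each direction 2 members of the list did not overlap, beside 12.7% (higher) and 13.7% (lower) of all tested genes. The list median was -0.15. Within FR104.F the array of R.22 had the lowest CD8A (12.06, against 12.90 and 12.81) and CD8B (9.88, against 11.34 and 11.13). In sorted bulk RNA, fewer cells of a kind and less RNA per cell cannot be told apart.

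CX3CR1 gave the smallest adjusted p among the named genes. Its signal was 5.42, 6.05 and 6.74 on the FR104.F arrays of R.22, R.23 and R.24, and 9.84, 9.61 and 9.23 on the Auto.D36 arrays of R.200, R.201 and R.202. The lowest autologous array was thus well above the highest FR104 array. The difference was -3.49 ± 0.53 (adjusted p = 6.36e-05), and the call held in each of 16 alternatives, with differences from -3.83 to -3.17. The healthy controls ran from 5.13 to 7.45 with a median of 6.22, so the 3 FR104.F arrays lay within the healthy range and the 3 Auto.D36 arrays above it. The healthy control arrays of the autologous animals themselves read 6.75, 6.37 and 5.59, in the same order.

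The list of long-lived effector and tissue-surveying T cell genes, to which CX3CR1 belongs, had 3 of 12 tested members lower in FR104.F (beside 1.57% of all tested genes) and none higher, with a median difference of -1.21 beside 0.00 over all genes. S1PR5, a receptor for sphingosine 1-phosphate that guides effector cells out of tissue, was 4.51, 6.89 and 8.25 in FR104.F and 9.38, 8.95 and 9.72 in Auto.D36 (-2.80 ± 0.74, adjusted p = 0.0204). PLEK, the protein kinase C substrate pleckstrin, was 7.46, 7.92 and 8.43 against 10.66, 10.28 and 9.88 (-2.34 ± 0.57, adjusted p = 0.0105). All 3 genes were separated without overlap, and in each the array of R.24 was the highest of FR104.F. The regulators ZEB2 and TBX21 and the chemokine CCL5 also did not overlap but missed the threshold, with -2.33 ± 0.74 (adjusted p = 0.0626), -1.64 ± 0.57 (0.0931) and -2.68 ± 0.86 (0.0659). Only CX3CR1 of this list was called without R.200 (median -1.06), without R.22 (-0.88) and without R.23 (-1.28), while 5 members were called without R.24 (-1.56). Without R.200 the adjusted p of S1PR5 and PLEK were both 0.109, without R.22 they were 0.268 and 0.0754, and without R.23 0.0543 and 0.05005. S1PR5 gave 0.0825 without R.202.

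Cytotoxic genes had a median difference of -0.78 over 14 tested members, of which 6 did not overlap in the lower direction (beside 13.7% of all tested genes) and 1, GZMH, was called lower (beside 1.57%). GZMH read 6.58, 9.93 and 12.07 in FR104.F and 13.56, 13.10 and 12.77 in Auto.D36. The FR104.F animals spread widely, with R.22 far below the others, while the autologous animals lay close together. The difference was -3.62 ± 0.79 (adjusted p = 0.00374), and without R.22 it was -2.14 with an adjusted p of 0.161. GZMB, the main granzyme of killer cells, was 10.02, 12.96 and 13.47 against 13.93, 13.97 and 13.72. R.22 was again the lowest, and GZMB was not called (-1.72 ± 0.57, adjusted p = 0.0773).

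NKG7, CST7 and SLAMF7, a granule membrane protein, an inhibitor of granule cathepsins and a receptor of cytotoxic cells, had differences of -1.53 ± 0.50, -1.50 ± 0.47 and -1.85 ± 0.59. Their adjusted p were 0.0740, 0.0573 and 0.0641, and none overlapped. GZMA (0.40 ± 0.43), GNLY (-0.64 ± 0.55), KLRG1 (0.09 ± 0.15) and IFNG (-0.82 ± 0.68) were not called either. Without R.24, the FR104 animal with the highest GZMH, 4 members of the list were called.

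The 10 largest falls among called genes that do not overlap include further receptors. KLRF1, the activating receptor NKp80 of NK cells and effector T cells, was 3.57, 6.28 and 8.84 in FR104.F against 10.74, 9.67 and 9.02 in Auto.D36. R.24 lay just below the lowest autologous array, and the difference was -3.58 ± 1.00 (adjusted p = 0.0294). SAMD3, a gene with a sterile alpha motif domain, was 3.81, 5.55 and 6.76 against 9.02, 8.74 and 8.54 (-3.39 ± 0.64, adjusted p = 0.000882). It kept its call in every one of the 16 alternatives, whereas KLRF1 was called neither without R.200 (adjusted p = 0.208), R.201 (0.0561), R.22 (0.318) nor R.23 (0.104). The other probe set of SAMD3 gave -0.13.

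BDKRB1 encodes the bradykinin receptor B1, which is induced in inflamed tissue. It read 7.62, 8.32 and 9.64 in FR104.F and 11.56, 11.19 and 11.77 in Auto.D36, a difference of -2.98 ± 0.53 (adjusted p = 0.000704). All FR104.F arrays lay below the healthy range of 9.70 to 11.65, and the call held in all 16 alternatives. The other probe set of BDKRB1 gave -0.14. DOCK5, an exchange factor for Rac, fell by 2.83 ± 0.77 on the log2 scale (adjusted p = 0.0262), and GPR141, an orphan receptor, fell by 2.72 ± 0.55 (0.00181). TPD52, a protein of vesicle traffic, fell by 2.69 ± 0.60 (adjusted p = 0.00460), and its other 2 probe sets gave -3.58 and -3.43, while those of DOCK5 gave -1.05 and -0.40. Each lost its call without R.200, with adjusted p of 0.210, 0.0509 and 0.104; DOCK5 also lost it without R.22 (0.230) and R.23 (0.107), and TPD52 without R.23 (0.0735).

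METTL14, part of the enzyme that methylates adenosine in mRNA, was lower by 3.56 ± 1.04 on 1 of its 3 probe sets (adjusted p = 0.0399). The others gave 0.14 and 0.00, and the mean of the probe sets fell by 1.14 with an adjusted p of 0.0753. Its arrays ran 6.96, 11.03 and 12.40 in FR104.F and 14.09, 13.30 and 13.67 in Auto.D36, the same order over the FR104 animals as GZMH. The call was lost on leaving out R.200 (adjusted p = 0.192), R.201 (0.0596), R.202 (0.0958), R.22 (0.414) or R.23 (0.0674). On all 10 of these leading genes R.24 was the highest array of FR104.F. Over the 185 lower genes R.24 was the highest of FR104.F in 92 (49.7%), beside 31.2% of all tested genes. Both sets of genes were chosen on these same values, so the order of R.24 is a description.

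**Figure D3:**
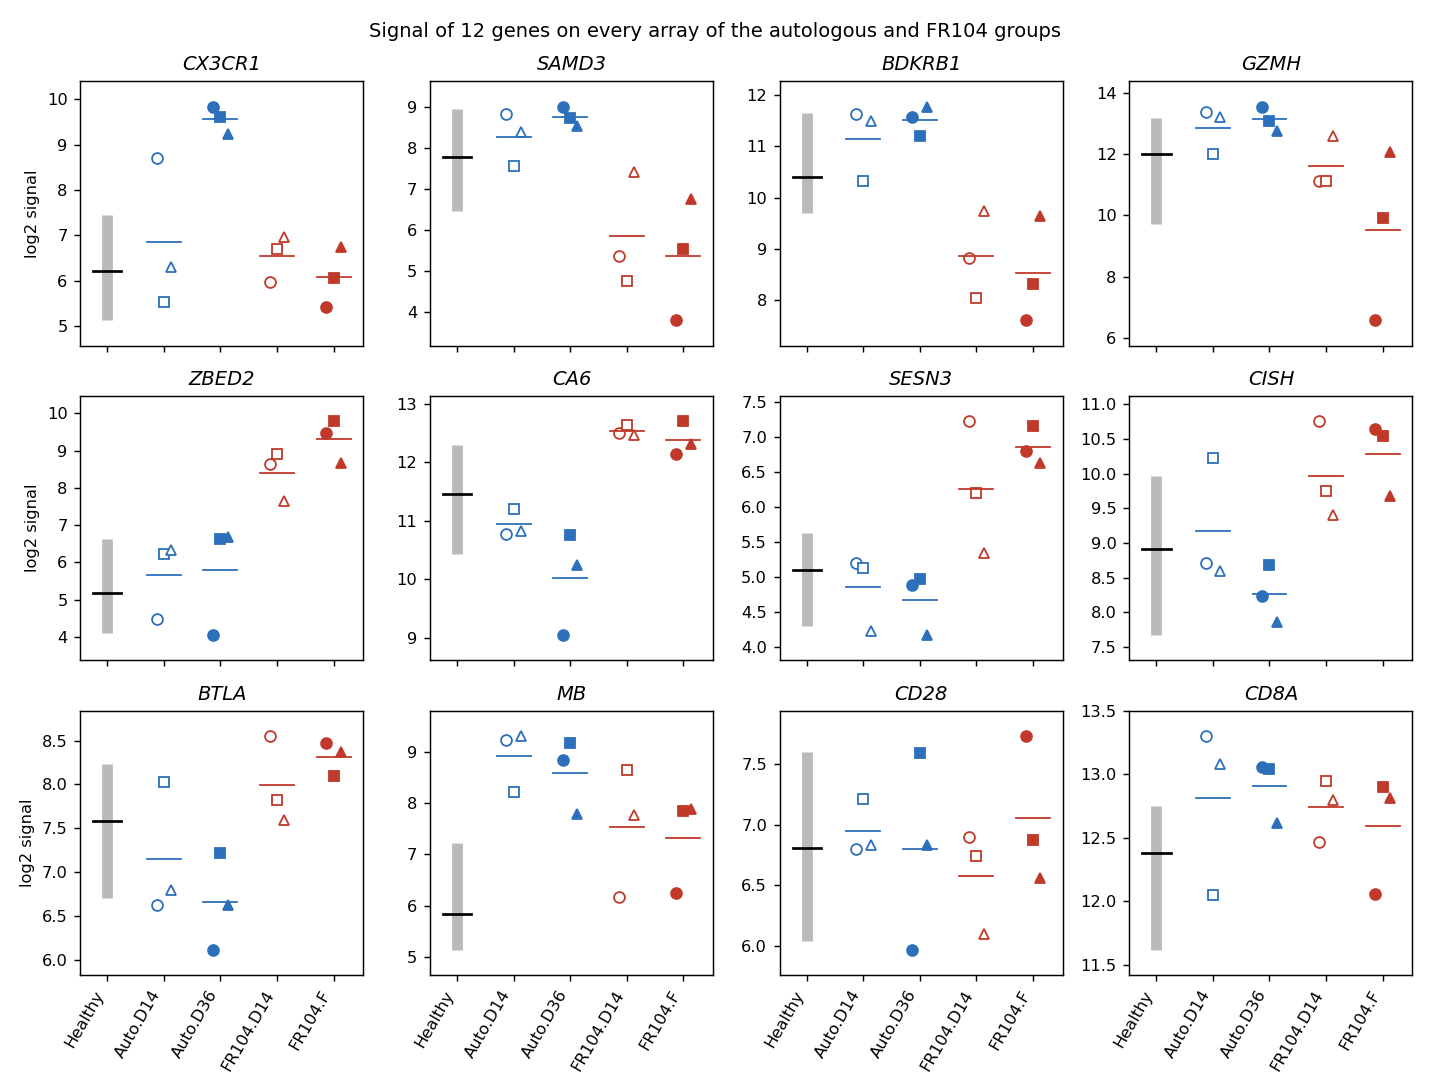
Log2 signal of 12 genes on each array, with filled markers for Auto.D36 (blue) and FR104.F (red), open markers for the day 14 arrays, 1 marker shape per animal and lines for group means. The gray bar is the range and the black line the median of 34 healthy controls. In CX3CR1 the Auto.D36 arrays lie above the healthy range and the FR104.F arrays within it, and in ZBED2 and SESN3 the FR104.F arrays lie above it.

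ZBED2 had the largest rise among genes with a symbol other than LOC. Its signal was 9.47, 9.78 and 8.66 in FR104.F and 4.06, 6.63 and 6.68 in Auto.D36. R.200 stood far below the other autologous arrays, yet even the highest autologous array was below every FR104 array. The difference was 3.51 ± 0.72 (adjusted p = 0.00225). Without R.200 it was 2.65 with an adjusted p of 0.0965. Healthy controls ran from 4.11 to 6.62, so that ZBED2 was above the healthy range on each FR104.F array. R.201 and R.202 of Auto.D36 were also just above its upper end.

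ZBED2 was counted among 14 tested genes of inhibitory receptors and exhaustion, whose median difference was 0.17. Of these, 3 were called higher (beside 1.58% of all tested genes) and none lower. The arrays did not overlap for 3 members in the higher and 3 in the lower direction (beside 12.7% and 13.7% of all tested genes). The lower ones, CD244 (-1.36 ± 0.62), VSIR (-0.69 ± 0.27) and LAYN (-0.23 ± 0.16), were not called. BTLA, an inhibitory receptor of the CD28 family, was 8.47, 8.10 and 8.37 against 6.12, 7.22 and 6.63 (1.66 ± 0.33, adjusted p = 0.00143). CD200, the ligand of an inhibitory receptor on myeloid cells, was 9.25, 8.53 and 8.65 against 6.20, 7.62 and 7.58 (1.68 ± 0.36, adjusted p = 0.00374). Both were separated without overlap, with R.200 lowest. BTLA stayed called without R.200, but CD200 did not (adjusted p = 0.137), and the list then had 1 call and a median of -0.08. Also not called were LAG3 (0.20 ± 0.43), HAVCR2 (-0.12 ± 0.30), TIGIT (0.21 ± 0.30) and the regulator TOX (0.15 ± 0.21), which are often read as exhaustion markers. LAG3 averaged 9.74 in FR104.F and 9.54 in Auto.D36, beside a healthy median of 7.30. In the same order, HAVCR2 gave 5.61, 5.72 and 4.96, TIGIT 10.30, 10.09 and 9.65, and TOX 9.97, 9.83 and 9.89. PDCD1, which encodes the receptor PD-1, was not among the 14 tested genes.

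Among the CD28 family and its ligands BTLA was the 1 call of 10 tested (beside 3.15% of all tested genes). The median difference was 0.24. CD28, the target of FR104, read 7.73, 6.87 and 6.56 in FR104.F and 5.97, 7.59 and 6.83 in Auto.D36. The arrays of the groups interleave, and the difference was 0.26 ± 0.34 (adjusted p = 0.801). CTLA4 was 7.50, 7.42 and 7.38 against 5.60, 7.53 and 7.48, with only R.200 apart (0.56 ± 0.46, adjusted p = 0.612). ICOS differed by 0.39 ± 0.32 (adjusted p = 0.618). Of 15 genes of CD28 and T cell receptor signalling, 1 was called higher and 1 lower (beside 1.58% and 1.57% of all tested genes). NFKB1, a subunit of NF-kappaB, was higher by 0.78 ± 0.21 (adjusted p = 0.0230), and its other probe sets gave -0.07 and 0.68. GRAP2, an adaptor that joins the receptor complex, was lower by 0.84 ± 0.22 (adjusted p = 0.0178). The call of NFKB1 was lost without R.200 (0.229), R.22 (0.0585) or R.23 (0.170), and that of GRAP2 without R.200 (0.0626), R.201 (0.0987), R.23 (0.0916) or R.24 (0.0511).

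Naive and quiescent T cell genes gave 5 higher of 10 tested (beside 1.58% of all tested genes) and none lower, with a median difference of 0.75. CA6 read 12.14, 12.70 and 12.31 in FR104.F and 9.05, 10.76 and 10.24 in Auto.D36, a difference of 2.37 ± 0.42 (adjusted p = 0.000704). The call of CA6 held in all 16 alternatives. TCF7, a transcription factor of naive and stem-like T cells, was 12.81, 12.85 and 12.74 against 11.06, 12.30 and 12.34 (0.90 ± 0.25, adjusted p = 0.0267). The FR104.F arrays were nearly level, and most of the separation came from R.200.

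SATB1, a chromatin organiser, was 1.31 ± 0.34 higher (adjusted p = 0.0187), the kinase gene TXK 1.12 ± 0.28 (0.0114) and FOXP1, a transcription factor that keeps naive T cells quiescent, 0.61 ± 0.18 (0.0426). CCR7, the lymph node homing receptor, was 9.72, 10.63 and 10.59 against 8.28, 9.98 and 9.61 and was not called (1.02 ± 0.50, adjusted p = 0.288). The 5 calls were CA6, SATB1, TXK, TCF7 and FOXP1. Left without R.200, 1 member was called and the median was 0.46, and without R.23 the values were 1 and 0.68. Without R.22 or R.24 of FR104.F 3 and 2 members were called. Without R.200 TCF7 gave an adjusted p of 0.480, SATB1 0.315 and TXK 0.262. Without R.23 these were 0.116, 0.0921 and 0.0840, and TCF7 and SATB1 also missed without R.22 (0.0818 and 0.0520) and R.24 (0.0545 and 0.05035).

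CISH and SOCS2 are feedback inhibitors that STAT5 induces downstream of the common gamma chain cytokines. CISH was 10.64, 10.54 and 9.68 in FR104.F and 8.24, 8.69 and 7.87 in Auto.D36, without overlap (2.02 ± 0.44, adjusted p = 0.00374). It was called in all 16 alternatives. SOCS2 was 9.64, 9.38 and 8.30 against 7.14, 7.65 and 6.71. It did not overlap either but was not called (1.94 ± 0.72, adjusted p = 0.125). CISH was the 1 call of the 17 tested genes of these receptors and their signalling (beside 3.15% of all tested genes). Their median was 0.08, and IL2RA, IL4R and STAT5A gave 0.61 ± 0.34, 0.65 ± 0.31 and -0.30 ± 0.24.

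MYC, a driver of growth after T cell activation, was 10.18, 11.01 and 10.83 in FR104.F and 7.87, 9.49 and 8.82 in Auto.D36 (1.95 ± 0.40, adjusted p = 0.00220). It was the 1 call of 11 immediate early genes (beside 3.15% of all tested genes). MYB, a transcription factor of progenitors and stem-like T cells, was 8.16, 8.26 and 7.94 against 5.64, 6.64 and 6.18 (1.97 ± 0.43, adjusted p = 0.00388). The groups did not overlap in either gene. Both lost their call without R.200, with adjusted p of 0.0819 and 0.0799. SESN3, a sestrin that restrains mTORC1, was 6.80, 7.15 and 6.63 against 4.88, 4.96 and 4.17 (2.19 ± 0.41, adjusted p = 0.000882), and its call held in all 16 alternatives. Its other 4 probe sets gave 0.55, 1.23, 0.84 and 0.36. The 17 cell cycle genes tested gave no call (beside 3.15% of all tested genes) and a median of 0.13, with MKI67 at 0.25 ± 0.43. Relative to healthy controls, the mean of this list ran from 1.14 to 2.34 in FR104.F and from 0.83 to 1.71 in Auto.D36. The healthy arrays themselves ran from -0.43 to 0.61, so both groups lay above them.

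PLS3, an actin-bundling plastin, was 4.79, 7.46 and 7.07 in FR104.F and 2.88, 3.63 and 3.36 in Auto.D36 (3.15 ± 0.68, adjusted p = 0.00374). The autologous arrays were all below the filter value of 4.65, and the adjusted p was 0.0621 without R.23. The other probe set of PLS3 gave 0.01. TNFSF10, the death ligand TRAIL, was 12.13, 12.21 and 10.78 against 9.09, 10.26 and 9.86 (1.97 ± 0.42, adjusted p = 0.00374). It did not overlap, and its adjusted p was 0.0861 without R.200 and 0.05004 without R.23. AFF3, a nuclear protein related to transcription elongation factors, was higher by 2.14 ± 0.51 (adjusted p = 0.00796; 0.144 without R.200, 0.0595 without R.23). Its other 3 probe sets gave 0.20, 0.20 and 0.22, and the mean of the probe sets was higher by 0.69 (adjusted p = 0.0145). SLC25A27, a mitochondrial carrier, was higher by 1.95 ± 0.46 (0.00735; 0.0503 without R.202, 0.0732 without R.23). TANC1, a scaffold protein, was higher by 2.02 ± 0.61 with an adjusted p of 0.0496. TANC1 kept its call in only 2 of 16 alternatives, and the adjusted p was 0.424 without R.200, 0.0657 without R.202, 0.127 without R.22, 0.141 without R.23 and 0.109 without R.24.

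R.200 was the lowest Auto.D36 array in 125 of the 187 higher genes (66.8%, beside 29.8% of all tested genes) and the highest in 114 of the 185 lower genes (61.6%, beside 33.7%). These shares use the values that chose the genes and are a description.

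MB, which encodes the oxygen-binding protein myoglobin, was named with CX3CR1 and ZBED2 as a marker of the comparison. Its signal was 6.25, 7.84 and 7.88 in FR104.F and 8.85, 9.17 and 7.78 in Auto.D36. R.202 fell between the FR104.F arrays, so the groups overlapped, and MB was not called (-1.28 ± 0.52, adjusted p = 0.181). It was above the healthy median of 5.84 on all 6 arrays. MB comes from a list of 7 genes that an earlier analysis of these arrays had found raised after autologous transplant, so the list is not independent of the data. Of the 7, BDKRB1 was called lower (beside 1.57% of all tested genes) and none higher, with a median difference of -1.02. TP63 (-1.08 ± 0.48, adjusted p = 0.225), IFI27 (-1.02 ± 0.68), LAG3, CD70 (0.23 ± 0.43) and SERPINE2 (0.86 ± 0.65) were not called.

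The Th1 and Th2 lists held 1 call each, beside 3.15% of all tested genes. IL12RB1, a subunit of the interleukin 12 receptor, was lower by 0.67 ± 0.19 (adjusted p = 0.0327), the 1 call of 13 Th1 and effector CD8 regulators (median -0.23). IL4, the signature cytokine of Th2 cells, was 3.92, 3.48 and 3.40 against 4.56, 4.68 and 4.20, the 1 call of 10 Th2 genes (-0.88 ± 0.23, adjusted p = 0.0180). These IL4 signals lie around or below the filter value of 4.65, near the bottom of the scale. IL12RB1 lost its call without R.200, R.201, R.22, R.23 or R.24 (adjusted p of 0.0745, 0.202, 0.0994, 0.131 and 0.0596), and IL4 without R.200, R.201, R.23 or R.24 (0.115, 0.0785, 0.105 and 0.0855).

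DHCR7, the enzyme of the last step of cholesterol synthesis, fell by 0.84 ± 0.20 (adjusted p = 0.00846; 0.0660 without R.202, 0.0910 without R.23), 1 of 12 genes of that pathway, whose median was -0.25. RRM2B, a ribonucleotide reductase subunit induced by p53, was higher by 0.99 ± 0.29 (adjusted p = 0.0431), 1 of 16 p53 targets. RRM2B lost its call without R.200 (0.455), R.201 (0.0614), R.22 (0.195), R.23 (0.104) or R.24 (0.0630). It kept its call in 5 of 16 alternatives, and its other probe sets gave -0.21, 0.43 and 0.09. TNFSF10 was the 1 call of 17 chemokines and cytokines, CX3CR1 the 1 call of 13 chemokine receptors, and S1PR5 the 1 call of 13 adhesion and homing genes. All list counts of this paragraph stand beside 3.15% of all tested genes called in either direction.

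No call was made in 9 lists of T cell state and metabolism or of other lineages with the following medians, beside 3.15% of all tested genes. Lists of this size can hold no call at that share. These were type I interferon response (19 tested, -0.25), regulatory T cells (12, -0.21), Th17 and Tc17 (9, 0.09), TNF superfamily costimulation (10, 0.09), glycolysis (15, 0.07), oxidative phosphorylation (16, -0.06), cell cycle (17, 0.13), plasma cells (7, 0.06) and dendritic cells (5, 0.12). FOXP3, the lineage factor of regulatory T cells, was at -0.33 ± 0.21 (adjusted p = 0.461), and IL17A at 0.44 ± 0.20 (0.254).

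**Figure D4:**
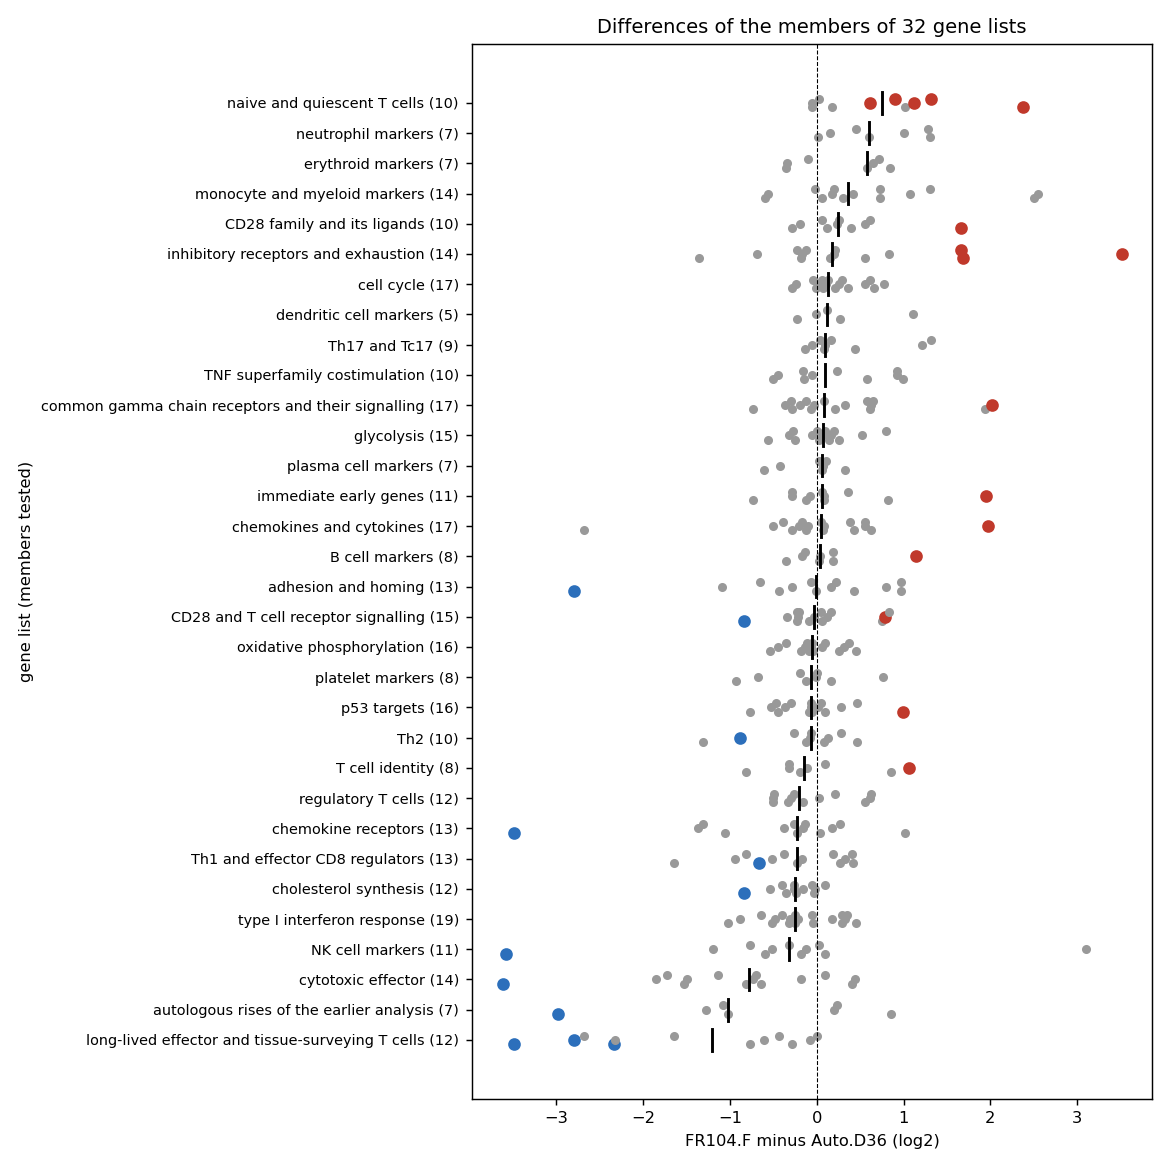
FR104.F minus Auto.D36 (log2) for the tested members of 32 gene lists, with genes called higher in red, genes called lower in blue, others in gray and the list median as a black bar. The naive list lies farthest to the right with a median of 0.75 and 5 calls, and the long-lived effector list farthest to the left with -1.21 and 3 calls.

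Markers of other blood cells were read beside these groups. Of 14 monocyte and myeloid markers tested none was called (beside 3.15% of all tested genes), 11 had a positive difference and the median was 0.36. The mean of the list relative to healthy controls ran from 0.19 to 1.36 in FR104.F and from -0.48 to 0.68 in Auto.D36. S100A8 and S100A9, the calprotectin subunits of neutrophils and monocytes, were the 2 members without overlap (beside 12.7% of all tested genes in the higher direction). S100A8 was 9.78, 9.10 and 12.06 in FR104.F and 5.64, 8.96 and 8.83 in Auto.D36 (2.50 ± 1.09, adjusted p = 0.219). S100A9 differed by 2.55 ± 1.14 (adjusted p = 0.234). R.24 was the highest and R.200 the lowest array in both genes. VCAN (1.30 ± 0.99), FCN1 (1.07 ± 0.88), LYZ (0.73 ± 1.10) and S100A12 (0.73 ± 0.37) were positive with overlapping arrays. The defining monocyte genes CD14 (6.39 and 6.09) and CSF1R (5.50 and 5.34) had differences of 0.30 ± 0.42 and 0.17 ± 0.34.

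The 7 neutrophil markers were all positive and gave no call (beside 3.15% of all tested genes), with a median of 0.60 beside 0.00 over all genes. Without overlap were 3 of them, CSF3R (0.45 ± 0.24), MMP8 and MMP9, beside 12.7% of all tested genes in the higher direction. The arrays of LCN2 overlapped. The mean of the neutrophil list ran from 0.08 to 1.87 in FR104.F and from -0.13 to 0.27 in Auto.D36. LCN2 (1.30 ± 0.46, adjusted p = 0.110), MMP8 (1.28 ± 0.48, 0.131) and MMP9 (1.00 ± 0.44, 0.215), products of neutrophil granules, had the largest differences. Without R.23 the median was 1.39 and LCN2 was called (adjusted p = 0.0319). Of 8 B cell markers 1, CD79B, was called higher (beside 1.58% of all tested genes), by 1.14 ± 0.30 (adjusted p = 0.0210). Its other probe set gave 0.07. CD79A (0.03 ± 0.16) and MS4A1 (-0.14 ± 0.56) were not called. CD79B lost its call without R.200 (0.189), R.23 (0.159) or R.24 (0.0653). Erythroid (7 tested, median 0.58) and platelet markers (8 tested, median -0.07) gave no call, beside 3.15% of all tested genes. Of 11 NK cell markers 1, KLRF1, was called lower (beside 1.57% of all tested genes). The NK list mean ran from -1.14 to 0.34 in FR104.F and from -0.54 to 0.40 in Auto.D36. NCAM1 (0.10 ± 0.14) and NCR3 (0.02 ± 0.20) were not called, and KLRC1 was 9.66, 10.40 and 10.97 against 9.49, 7.36 and 4.87 without a call (3.10 ± 1.28, adjusted p = 0.182). Of the other 5 probe sets of KLRC1, 2 gave -4.09 and -3.39, so its probe sets disagree in direction. The part of these cells in the results on CX3CR1, GZMH and the naive genes was not tested.

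Each group was also set against the 34 healthy controls to see which arm lay away from them. FR104.F differed from healthy controls in 1259 genes (10.7%) and Auto.D36 in 1976 (16.7%). With the actin signal as a covariate these counts were 729 and 646, and within batch 4 alone 810 and 1545. The first was 246 without R.22 and 718 without R.23, and the second 1089 without R.200 and 1185 without R.201. Both comparisons use the same controls, so their values are given side by side only.

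CX3CR1 was at -0.09 in FR104.F (adjusted p = 0.941) and 3.40 in Auto.D36 (9.59e-07) relative to healthy controls. ZBED2 was at 4.10 in FR104.F (1.36e-05) and 0.59 in Auto.D36 (0.607). PLS3, SESN3 and CD200 were likewise away from healthy in FR104.F, at 3.09, 1.82 and 1.59 (adjusted p of 0.000328, 0.000469 and 0.000467), and at -0.05, -0.37 and -0.09 in Auto.D36 (0.971, 0.564 and 0.903). For MYC, TCF7 and AFF3 the called arm was Auto.D36, at -1.46, -1.04 and -1.85 (0.00169, 0.000385 and 0.00176), while FR104.F stood at 0.49, -0.14 and 0.29 (0.422, 0.776 and 0.765). GZMH was at -2.55 in FR104.F (0.00894) and 1.07 in Auto.D36 (0.317), and BDKRB1 at -2.03 (0.00176) and 0.95 (0.155). CA6 was at 0.96 (0.0778) and -1.41 (0.00391). MB was raised in both, at 1.45 (0.0270) and 2.73 (1.99e-05).

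**Figure D5:**
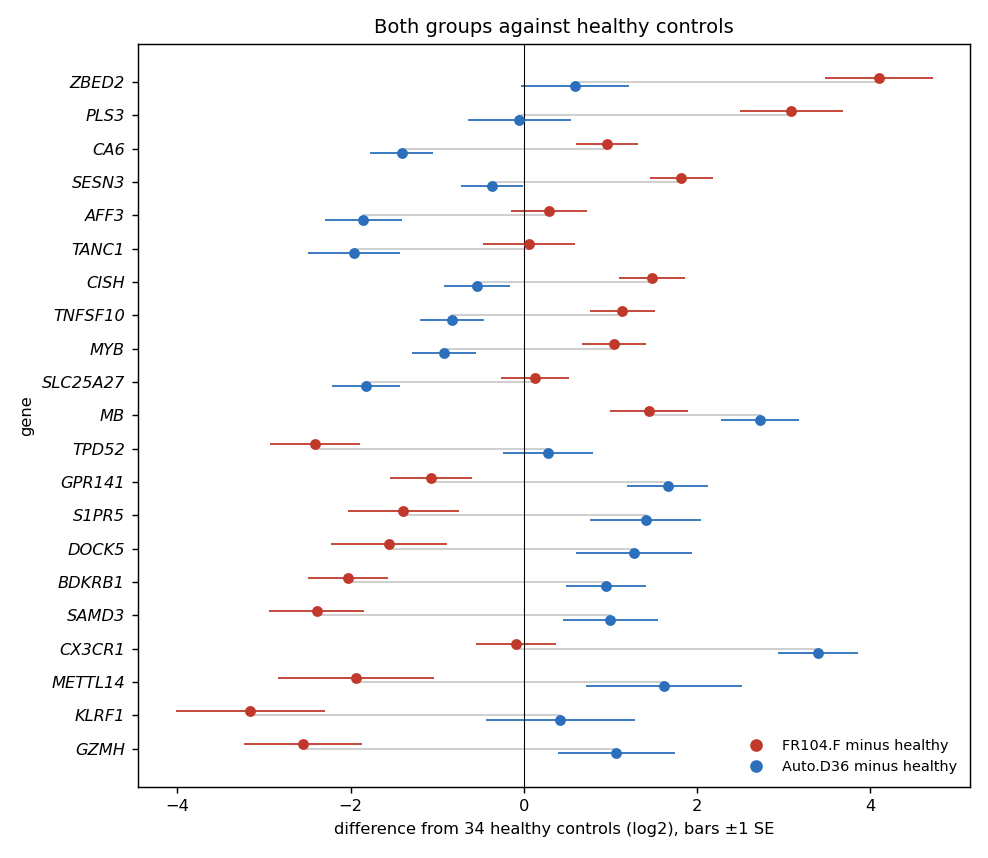
Difference from 34 healthy controls (log2, bars ±1 SE) in FR104.F (red) and Auto.D36 (blue) for the 10 largest rises, MB and the 10 largest falls. CX3CR1 departs from 0 in Auto.D36, ZBED2, PLS3 and SESN3 depart from it in FR104.F, and MB is above 0 in both.

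Over the 187 higher genes, the Auto.D36 mean was below the range of the healthy controls in 97 and within it in 90, and the FR104.F mean was within the range in 127 and above it in 60. Over the 185 lower genes the Auto.D36 mean was above the range in 97 and within it in 88. The FR104.F mean of these genes was within the range in 129, below it in 54 and above it in 2. Both sets were chosen on the same FR104.F and Auto.D36 values, so the side on which a mean falls is partly set by that choice. The counts are a description, and they were not made over all tested genes.

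The same animals had also been sampled on day 14. On those arrays the actin 3' minus 5' signal was 0.02, 0.03 and 0.37 for R.22, R.23 and R.24 of FR104.D14. It was 0.29, 1.49 and 2.26 for R.200, R.201 and R.202 of Auto.D14. The largest values were thus autologous on day 14, whereas on the later arrays they were those of FR104.F. FR104.D14 and Auto.D14 differed in 29 genes (0.246%), of which 15 were called later in the same direction and 0 in the opposite one. Of the 187 genes higher later, 179 had a positive difference on day 14, and of the 185 lower later, 173 had a negative one. Over all tested genes the sign was the same at both times in 61.2%. Both times use the same animals and the 187 and 185 genes were chosen on the later difference, so that share is not a matched baseline. The counts are a description. The median difference of the higher genes was 0.50 on day 14 and 0.99 later, and that of the lower genes -0.31 and -0.73. The day 14 count rested on single arrays, being 0 without R.23 and 14, 15 and 17 without R.22, R.24 and R.202, and 8 within batch 4 alone. With the actin signal as a covariate the day 14 count was 22. The part of the actin gap in the differences of single genes on day 14, and in their later changes, was not tested.

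MYC was apart by day 14, at 10.99, 11.04 and 10.73 under FR104 and 8.19, 9.37 and 9.39 in the autologous animals (1.93 ± 0.40, adjusted p = 0.00913), almost the later difference of 1.95. PLS3 (2.87 ± 0.68, adjusted p = 0.0397) and BDKRB1 (-2.28 ± 0.53, 0.0367) were called on day 14 as well. ZBED2 was 8.63, 8.90 and 7.65 against 4.47, 6.22 and 6.33 on day 14. These arrays did not overlap either, but the difference of 2.73 ± 0.72 missed the threshold (adjusted p = 0.0677). TP63 was called on day 14 (-1.98 ± 0.48, adjusted p = 0.0476) and not later.

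CX3CR1 was 5.96, 6.70 and 6.97 under FR104 on day 14 and 8.70, 5.52 and 6.30 in the autologous animals R.200, R.201 and R.202. At that time only R.200 was high, and the difference was -0.29 ± 0.53 (adjusted p = 0.885). The difference moved by -3.20 ± 0.74 between day 14 and the later samples. Over all 11806 genes no change of this kind was called by limma (0% of genes, smallest adjusted p 0.229 shared by CX3CR1), with 687 at an unadjusted p under 0.05. With the animal as a random block, which pairs the day 14 and later arrays of an animal, the change of CX3CR1 passed (adjusted p = 0.0426), as did that of CDK10, a cyclin-dependent kinase, at -1.35 ± 0.27 (0.0426). Without R.200 of Auto.D14, 26 genes passed, CX3CR1 at -4.13 ± 0.72 (adjusted p = 0.00146) and STAT3, the transducer of interleukin 6 signals, at -3.17 ± 0.69 (0.0210) among them. CDK10 and STAT3 were named after their values were seen. R.200 of Auto.D14 had an actin 3' minus 5' signal of 0.29, against 1.49 and 2.26 for R.201 and R.202, and its part in these calls was not tested.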

How the data were processed

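CD3 T cells sorted from rhesus macaque blood were measured on Affymetrix arrays prepared with the 3' IVT Plus protocol, per the labels. The authors deposited log2 signals per probe set, made with RMA and affy per the submitters' processing notes, with no versions or genome build given in the sources used here. Batches of healthy controls differed too little (F test p above 0.95 in 61.02% of probe sets), so the values appear adjusted for batch before deposit by a method not stated, and spreads may be understated. Of 52865 probe sets, 24969 carried 1 gene name, 361 several and 27535 none in the platform annotation; 13 of those named were control probe sets and were left out. The probe set with the highest mean stood for a gene (14132 genes), and genes above the 40th percentile (4.65) on at least 2 arrays were tested (11806). limma 3.58.1 (R 4.3.3, statmod 1.5.0) was fitted to all 81 arrays with group and batch, 62 residual degrees of freedom and a trended prior. P-values are 2-sided and adjusted by Benjamini-Hochberg within a comparison. The test was tried on simulated data. No sequences were used.

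Named genes are the 10 largest called rises and falls whose arrays do not overlap (LOC symbols passed over), up to 4 members with the smallest p of each of 32 lists, 16 fixed genes and the leading changes between times; part of them is printed. A list mean is the mean of its tested members on an array minus the mean over healthy controls. The members and lists were chosen with earlier results of these data known. Animals, not samples of one animal, are the replicates within a group. The day 14 and later arrays of an arm come from the same 3 animals, per the labels, and the animal entered as a random block in an alternative (correlation 0.194). Other alternatives were no batch term, batch 4 alone, only the groups compared, no filter, the mean of probe sets, renewed quantile normalization, the actin signal as covariate, no trend, robust variances and each array left out.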

Additional observations from a re-analysis of the deposited data

How the results depend on the processing

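Of the 39 named genes called in FR104.F against Auto.D36, 7 kept their call in every alternative (BDKRB1, BTLA, CA6, CISH, CX3CR1, SAMD3 and SESN3), 32 lost it in at least 1 and 0 reversed; 19 of 112 named genes not called were called in at least 1. The count of 372 was 192 within batch 4 and 66 to 350 with an array left out. It lay between 308 (animal as replicate block) and 464 (no batch term) in the other alternatives, but a fit to the 6 arrays alone called 311 genes of which 152 were among the 372, and 24 of the 39 named genes lost their call in it. The split was 176 higher and 276 lower with the mean of probe sets and 136 and 175 with the 6 arrays alone. FR104.F against healthy controls gave 2237 calls with no batch term, 810 within batch 4, 729 with the actin covariate and 246 to 1107 with an array left out. Auto.D36 against healthy controls gave 3029 with no batch term, 646 with the actin covariate and 1089 to 1638 with an array left out. Day 14 gave 61 with no batch term, 8 within batch 4, 17 with only the groups compared, 58 after renewed quantile normalization (19 higher, 39 lower) and 0 to 33 with an array left out. The change between times gave 2 with the replicate block and 0 to 26 with an array left out. The actin difference of 0.58 was 0.19 from the 3' end to the middle and 0.50 to 0.66 with an array left out. The cause of these shifts was not tested. With 3 arrays a group, the precision is limited by their number.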

Other observations

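Probe sets with no single gene name also differed between FR104.F and Auto.D36. Of 37220 probe sets tested one by one in limma, 858 passed an adjusted p of 0.05 (2.31%). Among the 17269 with no single gene name 307 passed (1.78%), 181 higher and 126 lower in FR104.F.

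Genes known by a LOC symbol, passed over by the naming rule, include the largest difference in each direction; they were chosen here after their values were seen. LOC722305 was 7.30, 5.54 and 7.68 in FR104.F and 11.17, 10.25 and 10.80 in Auto.D36, a difference of -3.90 ± 0.89 (adjusted p = 0.00608). LOC699418 was 10.65, 4.36 and 7.22 against 3.27, 3.84 and 3.46, a difference of 3.89 ± 0.90 (adjusted p = 0.00642). All 3 Auto.D36 arrays of LOC699418 and R.23 of FR104.F lie below the filter value of 4.65, so its difference is against signal at the bottom of the scale. Neither gene overlapped between the groups, and both were called on day 14 in the same direction, at -4.81 ± 0.89 (adjusted p = 0.00467) and 3.79 ± 0.90 (0.0397).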
